A study of Mus musculus with 6 samples.

Results

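SR proteins and heterogeneous nuclear ribonucleoproteins (hnRNPs) were examined in bulk RNA of intestinal group 3 innate lymphoid cells (ILC3s). The members were chosen by name: gene symbols of the deposited table that begin with Srsf or Hnrnp, without the 3 pseudogene rows ending in -ps. This gave 31 genes of 25075, of which 11 belong to the SR family and 20 to the hnRNP family. All 31 passed the filter on low counts and are among the 15261 genes tested.

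SR proteins carry RNA recognition motifs and a tail rich in arginine and serine. They bind exonic enhancers, recruit the spliceosome and mostly favour inclusion of an exon, and several shuttle to the cytoplasm with the mRNA. hnRNPs coat nascent transcripts, and many of them oppose SR proteins at nearby sites, so that the balance between the families bears on which exons are kept. Several genes of both families limit their own protein through exons that send the transcript to nonsense-mediated decay. In lymphocytes hnRNP L and hnRNP LL are known for the alternative splicing of the phosphatase CD45. A count per gene says nothing of exon use, so the values below are total RNA of each gene and not splicing.

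The 6 mouse libraries came from 2000 sorted cells and 2 ng of RNA each, amplified by Smart-seq2, which copies whole transcripts from little RNA. The cells were lineage-negative, CD90.2-positive, KLRG1-negative small intestinal cells from B6 mice. The 3 libraries labelled Batf-deficient came from mice with floxed Batf and the PLZF-Cre transgene (Batf fl/fl PLZF-Cre+). PLZF-Cre acts in cells that express, or descend from cells that expressed, the transcription factor PLZF. The 3 labelled control libraries came from mice with floxed Batf and no Cre (Batf fl/fl PLZF-Cre-), and age and sex are not given in the labels used here. Total counts were 8420533, 8228513 and 13615895 in the libraries labelled Batf-deficient and 9080012, 15399111 and 17334207 in the labelled control libraries. Values are CPM (counts scaled to a common library size) scaled by the trimmed mean of M-values (TMM), and 3 counts corresponded to 0.156 to 0.426 CPM.

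With TMM factors the target gene went against its label. Batf had 38.3, 41.3 and 41.3 CPM across the libraries labelled Batf-deficient, against 15.2, 15.3 and 18.95 CPM in the labelled control libraries, and the sources used here do not give the floxed exons. Its log2 fold change was 1.29 with SE 0.16 (adjusted p = 1.70e-05 by edgeR), and -1.05 when libraries were scaled on 20 genes of lymphoid cells. Whether the labels of the groups were exchanged cannot be told from counts per gene; an exchange would turn the sign of every fold change and the order of every share and ratio below. The groups also differed in transcripts that mark other cell types. Transcripts of 14 pancreatic acinar markers took 0.000571% to 0.000683% of counts in the libraries labelled Batf-deficient and 10.03% to 10.4% in the labelled control libraries, and 17 intestinal epithelial markers took 0.0357% to 0.0431% in the libraries labelled Batf-deficient and 1.44% to 1.53% in the labelled control libraries. Of these lists, 13 of the 13 acinar and 16 of the 17 epithelial markers tested were lower in the libraries labelled Batf-deficient, and 3 acinar markers (Try4, Pnliprp1 and Ptf1a) had no count there, while no marker of the other lists was at 0 in all libraries of a group. B and plasma cell, stromal and endothelial, and macrophage and dendritic cell markers were lower for 7 of 11, 10 of 12 and 9 of 11 genes and higher for 2, 1 and 1. Their summed shares were 0.104% to 0.115%, 0.0117% to 0.0146% and 0.00941% to 0.0108% in the libraries labelled Batf-deficient, and 1.02% to 1.04%, 0.126% to 0.135% and 0.101% to 0.114% in the labelled control libraries. The 11 alpha-beta T cell markers, of which 8 were higher and 1 lower, took 0.184% to 0.195% in the libraries labelled Batf-deficient and 0.0367% to 0.0385% in the labelled control libraries. The 13 ILC3 markers, all higher, took 0.977% to 1.04% of counts in the libraries labelled Batf-deficient and 0.161% to 0.183% in the labelled control libraries. The 10 inducible heat shock genes, all higher, took 4.01% to 4.25% in the libraries labelled Batf-deficient and 0.101% to 0.102% in the labelled control libraries. These counts of higher and lower markers are with TMM factors, where 30.2% of all genes were higher and 34.1% lower. Scaled on the 20 lymphoid genes, 5 T cell markers were higher and 5 lower, and 7 ILC3 markers were higher and 3 lower. With that scaling 9 heat shock genes were higher, where 2.18% of all genes were higher and 85.8% lower. The part of these differences in the results below was not tested, and in bulk RNA fewer cells of a type and less RNA per cell cannot be told apart.

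The sign of a fold change depended on how libraries were scaled. With the lymphoid scaling the median log2 fold change of all genes shifted by -2.34, and with library totals it shifted by -0.38. Under those scalings, the DESeq2 size factors and the TMM factors without tissue and heat shock genes, each member kept its place relative to the median gene to within 0.0111, apart from Srsf12, which moved by 0.0586. A scaling shifts all genes nearly alike, so this place is fixed by construction and favours no scaling over another. Of the 31 members, 21 lay above that median and 10 lay below it, which these scalings could hardly change. Fold changes are given with TMM factors, where the median gene was at 0.02, as labelled Batf-deficient over labelled control. Higher and lower below hold for that scaling, and with lymphoid scaling 30 of the 31 members were lower and Srsf12 did not pass, where 88.0% of all genes passed, 85.8% lower and 2.18% higher.

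With TMM factors, RNA of the families did not move as a block. Of the 31 members, 16 were higher in the libraries labelled Batf-deficient, 8 were lower and 7 missed the adjusted p of 0.05 (edgeR quasi-likelihood test). Over all 15261 genes tested, 30.2% were higher, 34.1% were lower and 64.4% passed in either direction. In the hnRNP family 12 of 20 members were higher and 5 lower, and in the SR family 4 of 11 were higher and 3 lower. The median log2 fold change was 0.66 for the hnRNP genes, 0.19 for the SR genes and 0.02 for all genes tested. With library totals 11 members were higher and 12 lower, where 62.4% of all genes passed, 20.0% higher and 42.4% lower. Changes were mostly moderate: Srsf3 and Hnrnpc passed at 2-fold or more higher and Hnrnpa0 and Hnrnpul2 at 2-fold or more lower, where 19.4% and 26.9% of all genes did so. The libraries of the groups did not overlap in CPM for 25 of the 31 members, compared with 71.2% of all genes. Of these members 17 were higher and 8 lower, where 34.6% and 36.5% of all genes stood apart in those directions.

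**Figure D1:**
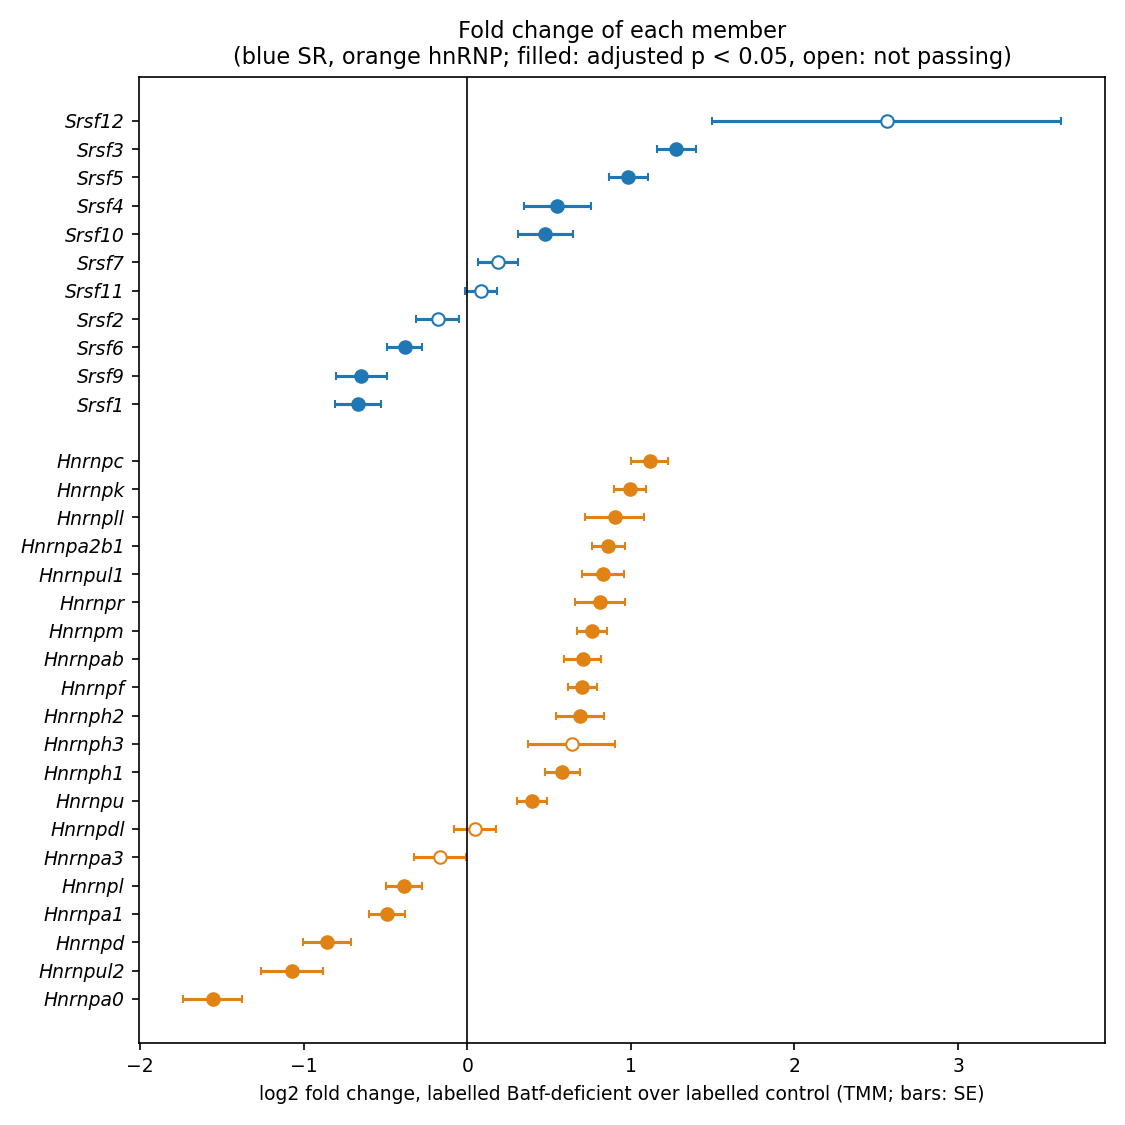
Log2 fold change of each SR (blue) and hnRNP (orange) gene, labelled Batf-deficient over labelled control, with TMM factors; bars are standard errors and filled points passed at an adjusted p of 0.05 by edgeR. Members run from 2.56 for Srsf12, which did not pass, to -1.56 for Hnrnpa0; with lymphoid scaling all points except Srsf12 lie below 0.

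Srsf3 encodes the smallest SR protein, which acts in exon inclusion, alternative polyadenylation and mRNA export, and it showed the largest change of the SR genes that passed. Its mm10 position is chromosome 17, 29032628 to 29043373, plus strand. Its level was 431, 436 and 355 CPM across the libraries labelled Batf-deficient, against 156, 191 and 156 CPM in the labelled control libraries. All 3 libraries labelled Batf-deficient stood above all 3 labelled control libraries. The mean was 407 ± 45.5 CPM across the libraries labelled Batf-deficient and 168 ± 20.3 CPM in the labelled control libraries (SD, n = 3 each). This is a 2.42-fold difference (log2 fold change 1.28 with SE 0.12, adjusted p = 1.57e-06 by edgeR), which lymphoid scaling turned to -1.07. Of the 50-base stretches of its longest coding transcript, 31.5% also occur in transcripts of 5 other genes, so its reads may be shared with these.

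Srsf1, the founding SR protein (SF2/ASF), which acts at 5′ splice sites, went the other way with TMM factors. Its mm10 position is chromosome 11, 88047373 to 88053755, plus strand. It had 44.5, 46.2 and 34.0 CPM across the libraries labelled Batf-deficient, against 64.5, 68.2 and 64.5 CPM in the labelled control libraries, again with no overlap. Srsf1 was 1.59-fold lower (log2 fold change -0.67, SE 0.14, edgeR adjusted p = 0.00116). It was also lower with library totals and with lymphoid scaling, but both shift all genes down, which fixes that sign. None of its 50-base stretches is shared with another gene. The promoters of this pair are shown because the genes stand at opposite ends of the SR genes that passed. They are RefSeq sequences of GRCm38.p6, given 5′ to 3′ on the gene's strand, chr17:29032410-29032709 (plus) for Srsf3 and chr11:88047123-88047422 (plus) for Srsf1. Capitals mark the CCAAT box, the site of the factor NF-Y, on either strand (CCAAT or ATTGG).
Srsf3: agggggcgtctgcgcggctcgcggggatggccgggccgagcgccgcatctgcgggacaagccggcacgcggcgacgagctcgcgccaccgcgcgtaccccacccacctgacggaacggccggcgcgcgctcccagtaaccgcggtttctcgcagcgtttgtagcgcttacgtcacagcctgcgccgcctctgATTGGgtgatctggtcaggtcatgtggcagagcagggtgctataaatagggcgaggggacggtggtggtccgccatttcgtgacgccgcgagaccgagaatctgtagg
Srsf1: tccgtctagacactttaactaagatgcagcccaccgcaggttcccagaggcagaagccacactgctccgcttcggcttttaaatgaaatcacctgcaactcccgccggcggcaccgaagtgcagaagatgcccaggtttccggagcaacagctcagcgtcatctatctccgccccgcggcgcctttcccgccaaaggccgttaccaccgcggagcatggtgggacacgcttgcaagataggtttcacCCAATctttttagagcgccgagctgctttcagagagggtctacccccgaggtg
Each of these windows held a single CCAAT box, on opposite strands.

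Among the other SR genes, Srsf5, an SR protein that shuttles between nucleus and cytoplasm, had 204, 216 and 229 CPM across the libraries labelled Batf-deficient, against 90.5, 121 and 115 CPM in the labelled control libraries. The groups did not overlap, and the log2 fold change was 0.99 (SE 0.12, edgeR adjusted p = 1.97e-05). With lymphoid scaling it was -1.35, and 27.8% of its 50-base stretches are shared with the gene model Gm12966. Srsf4 and Srsf10 passed with smaller values of 0.55 and 0.48. These calls were the least stable of the members: each ended in most of the fits that left out a library, and with library totals, and that of Srsf10 also ended by limma voom (adjusted p = 0.0594).

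Srsf4 had an edgeR adjusted p of 0.0547, 0.0593 and 0.275 without labelled Batf-deficient replicate 1, 2 and 3 in turn, and of 0.0132, 0.0952 and 0.0515 without labelled control replicate 1, 2 and 3. With all libraries it was 0.0311, and 1532 of the exonic bases of Srsf4 overlap the gene model Gm12992 on the opposite strand. Srsf10 had an edgeR adjusted p of 0.143, 0.171 and 0.0154 without labelled Batf-deficient replicate 1, 2 and 3, and of 0.0928, 0.0135 and 0.0609 without labelled control replicate 1, 2 and 3, in place of 0.0263. SRSF10 is known as a splicing repressor that acts when cells are heat-shocked, and its groups overlapped, at 43.0 to 62.1 CPM across the libraries labelled Batf-deficient and 33.9 to 45.7 CPM in the labelled control libraries.

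Srsf9 and Srsf6, SR proteins that act on alternative exons, were lower beside Srsf1. Srsf9 had 21.1, 21.5 and 18.7 CPM across the libraries labelled Batf-deficient and 31.0, 34.4 and 30.2 CPM in the labelled control libraries (log2 fold change -0.65, SE 0.15, edgeR adjusted p = 0.00293). Srsf6 had 53.8, 57.3 and 55.8 CPM across the libraries labelled Batf-deficient and 69.7, 75.2 and 72.7 CPM in the labelled control libraries (log2 fold change -0.38, SE 0.11, edgeR adjusted p = 0.00843). Neither gene overlapped between groups, and the calls of Srsf1, Srsf6 and Srsf9 held in each of the 6 fits that left out a library. All 3 were lower with library totals and with lymphoid scaling too, where the downward shift of all genes fixes that sign.

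Srsf2, Srsf7 and Srsf11 did not pass. Srsf2 (SC35), a marker protein of nuclear speckles, was the most abundant SR gene per kilobase of exon over all 6 libraries, at 44.6 CPM per kb in the libraries labelled Batf-deficient and 50.5 CPM per kb in the labelled control libraries. In the libraries labelled Batf-deficient Srsf5 (54.2 CPM per kb) and Srsf3 (51.6 CPM per kb) stood above it. Its levels of 138, 147 and 111 CPM across the libraries labelled Batf-deficient and 163, 156 and 129.8 CPM in the labelled control libraries overlapped (log2 fold change -0.18, SE 0.13, edgeR adjusted p = 0.245), and with library totals it passed as lower (-0.57, edgeR adjusted p = 0.00183). Srsf2 has 748 exonic bases that overlap Mettl23 and Mfsd11 on the opposite strand. Srsf7, which has a zinc knuckle beside its recognition motif, had a log2 fold change of 0.19, and Srsf11 had 0.08. With library totals both were negative, and Srsf11 passed as lower (-0.30, edgeR adjusted p = 0.0221).

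Srsf12, an SR-like protein known in human as a splicing inhibitor, was close to the detection limit. It had 22, 18 and 28 counts in the libraries labelled Batf-deficient, against 0, 0 and 23 counts in the labelled control libraries, which is 3.05, 2.56 and 2.25 CPM across the libraries labelled Batf-deficient and 0, 0 and 1.19 CPM in the labelled control libraries. The groups did not overlap, but the log2 fold change of 2.56 had a standard error of 1.07 and an edgeR adjusted p of 0.0547. Over all alternatives the adjusted p ran from 0.000266, without labelled control replicate 3, to 0.798 with lymphoid scaling, and it was 0.0301 by DESeq2 and 0.00406 by limma voom. Labelled control replicate 3 holds all counts of its group.

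**Figure D2:**
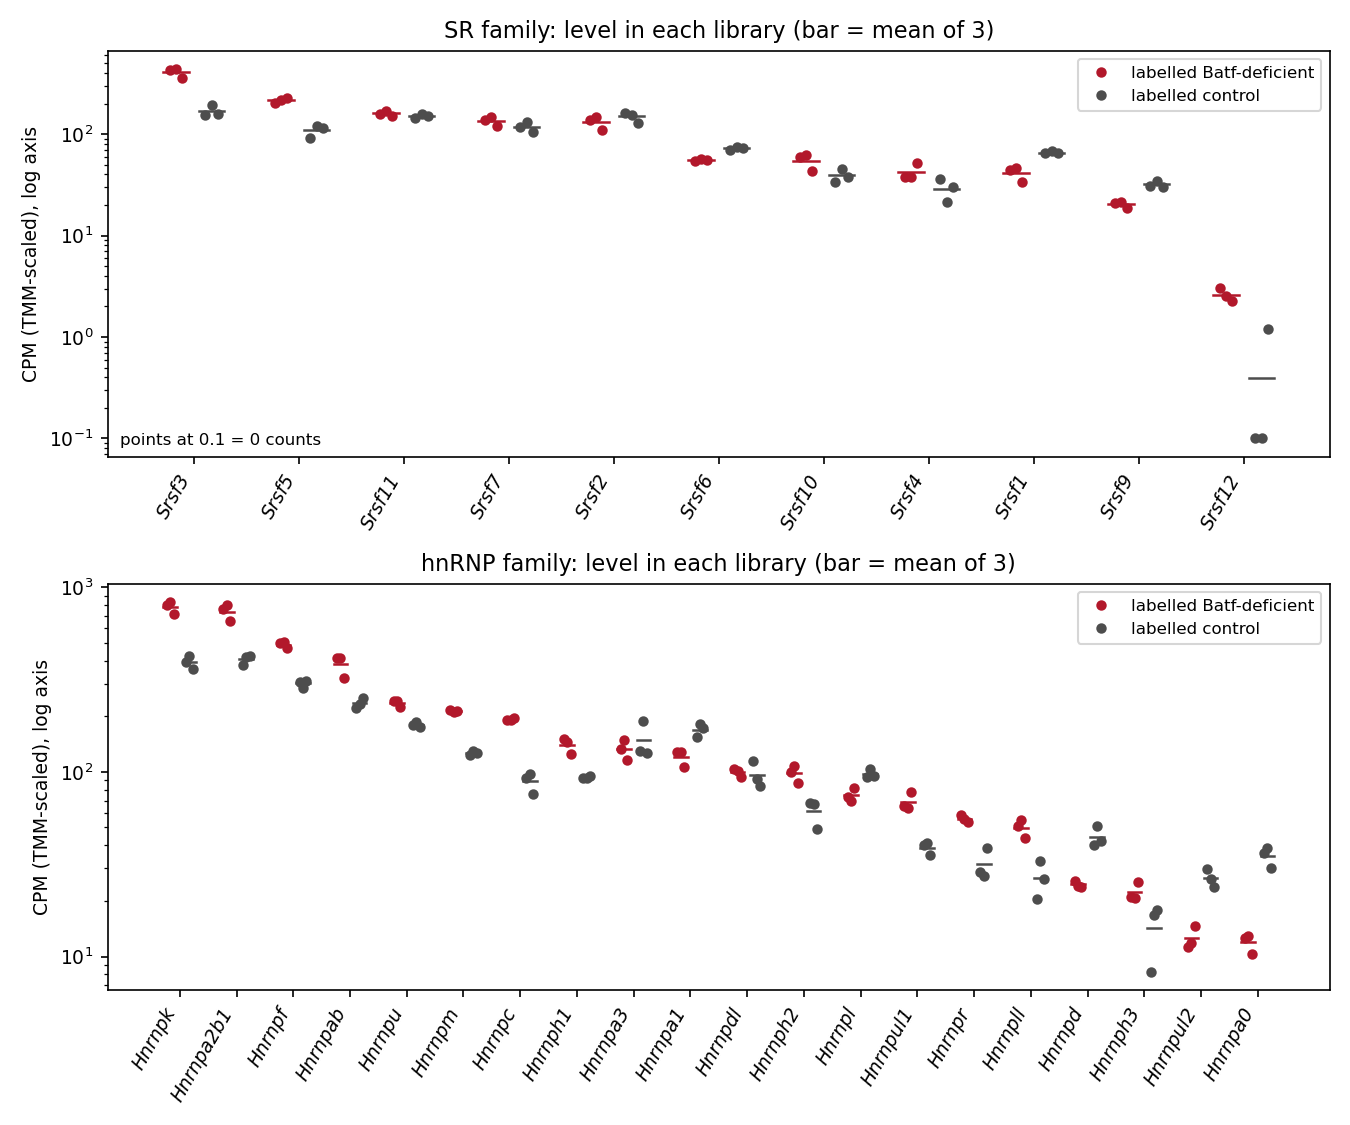
Level of each member in each library (TMM-scaled CPM, log axis; red points labelled Batf-deficient, grey points labelled control, bars the mean of 3 libraries; 0 counts are drawn at 0.1). Srsf3 (355 to 436 CPM labelled Batf-deficient, 156 to 191 CPM labelled control) and Hnrnpa0 (10.3 to 12.9 CPM labelled Batf-deficient, 30.0 to 38.5 CPM labelled control) separate in opposite directions; with lymphoid scaling the fold changes of both are negative.

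In the hnRNP family the most abundant genes were higher with TMM factors. Hnrnpf, Hnrnpab and Hnrnpk had the highest levels per kilobase of exon over all 6 libraries, at 161, 138 and 121 CPM per kb in the libraries labelled Batf-deficient and 98.9, 84.8 and 60.8 CPM per kb in the labelled control libraries. Hnrnpa2b1 was close to Hnrnpk and above it in the labelled control libraries, with 112 CPM per kb across the libraries labelled Batf-deficient and 61.8 CPM per kb in the labelled control libraries. With lymphoid scaling all 4 were lower.

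Hnrnpk, which binds C-rich RNA and DNA through KH domains and acts in splicing, transcription and translation, was mapped to the minus strand of chromosome 13, 58391142 to 58403343 in mm10. Its level was 801, 829.8 and 718 CPM across the libraries labelled Batf-deficient, against 395, 423 and 360.2 CPM in the labelled control libraries. The groups were far apart relative to their spread, with means of 783 ± 58.2 CPM across the libraries labelled Batf-deficient and 393 ± 31.4 CPM in the labelled control libraries (SD, n = 3 each; log2 fold change 0.99, SE 0.10, edgeR adjusted p = 2.55e-06). Hnrnpf, which binds runs of G near splice sites, had 500.2, 503 and 467 CPM across the libraries labelled Batf-deficient and 306, 286 and 312 CPM in the labelled control libraries (log2 fold change 0.70, SE 0.09, edgeR adjusted p = 2.33e-05). Hnrnpab, an AU-rich RNA binder, had 414, 415 and 324 CPM across the libraries labelled Batf-deficient and 222, 234 and 251 CPM in the labelled control libraries (log2 fold change 0.70, SE 0.11, edgeR adjusted p = 0.000177). None of these genes overlapped between groups, and with lymphoid scaling Hnrnpk, Hnrnpf and Hnrnpab were at -1.35, -1.64 and -1.64. Shared 50-base stretches made up 34.5% of Hnrnpk and 49.0% of Hnrnpf. Hnrnpk, Hnrnpf and Hnrnpab have 330, 806 and 809 exonic bases that overlap genes on the opposite strand.

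Hnrnpc had the largest positive fold change of the hnRNP genes. Its protein binds runs of U and, in human cells, keeps cryptic exons out of mRNA by competing with U2AF. Its mm10 position is chromosome 14, 52073377 to 52104028, minus strand. It had 192, 192 and 195 CPM across the libraries labelled Batf-deficient, against 93.2, 97.7 and 76.0 CPM in the labelled control libraries. The libraries labelled Batf-deficient lay within a narrow band above all of the labelled control values (2.17-fold, log2 fold change 1.12, SE 0.11, edgeR adjusted p = 3.48e-06, and -1.23 with lymphoid scaling). Of the 50-base stretches of Hnrnpc, 12.3% are shared with 2 other genes.

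Hnrnpa0, an intronless gene whose product binds AU-rich elements of inflammatory mRNAs, was at the other end. Its mm10 position is chromosome 13, 58125879 to 58128556, minus strand, and none of its 50-base stretches is shared. Its level was 12.6, 12.9 and 10.3 CPM across the libraries labelled Batf-deficient, against 36.4, 38.5 and 30.0 CPM in the labelled control libraries. The groups were separate, and Hnrnpa0 was 2.94-fold lower (log2 fold change -1.56, SE 0.18, edgeR adjusted p = 1.13e-05). Promoters of this pair are shown as the ends of the hnRNP family, at chr14:52103972-52104271 (minus) for Hnrnpc and chr13:58128507-58128806 (minus) for Hnrnpa0, from the same source, with the CCAAT box in capitals as above.
Hnrnpc: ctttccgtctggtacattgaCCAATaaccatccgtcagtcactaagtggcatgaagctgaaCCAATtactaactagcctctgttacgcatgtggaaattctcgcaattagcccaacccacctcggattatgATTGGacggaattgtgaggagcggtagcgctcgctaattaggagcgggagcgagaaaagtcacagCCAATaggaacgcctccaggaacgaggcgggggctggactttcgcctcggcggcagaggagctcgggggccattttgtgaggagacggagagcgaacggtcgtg
Hnrnpa0: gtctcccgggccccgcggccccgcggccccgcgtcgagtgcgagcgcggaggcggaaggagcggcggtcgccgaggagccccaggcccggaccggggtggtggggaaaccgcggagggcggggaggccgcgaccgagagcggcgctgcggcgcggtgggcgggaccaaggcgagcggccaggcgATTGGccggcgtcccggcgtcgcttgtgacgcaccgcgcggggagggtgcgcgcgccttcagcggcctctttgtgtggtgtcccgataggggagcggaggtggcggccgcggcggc
The Hnrnpc window held 4 CCAAT boxes and a GC content of 54.3%, and the Hnrnpa0 window held 1 with a GC content of 79.7%. Windows of the lower genes Hnrnpa1 and Hnrnpl and of the higher genes Hnrnpr and Hnrnpul1 also held 4 boxes. A link of the boxes or the GC content to the fold changes was not tested.

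Promoter windows of 300 bases were found for 29 of the 31 members, in 41 windows since some genes have several starts. Some windows of a gene overlap, as those of Hnrnpa2b1 do, so a single site can count in several windows. A CCAAT box (CCAAT, both strands) was present in 21 of the 41 windows (51.2%), where 37.4% of all 32851 promoter windows held it. By gene, it was found in 11 of 15 members that were higher, 4 of 7 that were lower and 2 of 7 that did not pass. A gene with several windows has more chances to hold the box, and no share by gene was computed over all genes. The counts by gene can therefore not be set against the share of windows, and a difference between them was not tested. The AP-1 site TGANTCA, the motif that BATF dimers bind, searched on both strands, was in 1 of the 41 windows (2.44%), that of Hnrnpa1, and in 7.81% of all windows. A core of the heat shock element, GAANNTTC or TTCNNGAA, was in 5 windows (12.2%), those of Hnrnpa2b1, Hnrnpf, Hnrnpl and Srsf9, and in 15.1% of all windows.

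The pair that acts on CD45 diverged with TMM factors. Hnrnpll, induced in memory T cells and plasma cells, had 50.9, 54.8 and 43.6 CPM across the libraries labelled Batf-deficient, against 20.6, 32.8 and 26.2 CPM in the labelled control libraries (log2 fold change 0.90, SE 0.18, edgeR adjusted p = 0.00085). Hnrnpl, its constitutive relative, had 73.2, 69.2 and 81.4 CPM across the libraries labelled Batf-deficient and 94.2, 104 and 95.6 CPM in the labelled control libraries (log2 fold change -0.39, SE 0.11, edgeR adjusted p = 0.00851). Neither gene overlapped between groups, and with lymphoid scaling they were at -1.44 and -2.73. Within each library, where scaling has no effect, the ratio of Hnrnpll to Hnrnpl was 0.675 ± 0.129 in the libraries labelled Batf-deficient and 0.270 ± 0.0492 in the labelled control libraries (SD, n = 3 each).

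The members next to Hnrnpa0 in the order of decrease were Hnrnpul2 and Hnrnpd. Hnrnpul2, a relative of hnRNP U that acts in the DNA damage response, had 11.2, 11.8 and 14.6 CPM across the libraries labelled Batf-deficient and 29.8, 26.3 and 23.7 CPM in the labelled control libraries (log2 fold change -1.07, SE 0.19, edgeR adjusted p = 0.000366). Hnrnpd (AUF1), which directs the decay of mRNAs with AU-rich elements, had 25.8, 24.01 and 23.9 CPM across the libraries labelled Batf-deficient and 40.2, 50.9 and 42.4 CPM in the labelled control libraries (log2 fold change -0.86, SE 0.15, edgeR adjusted p = 0.000279). Neither overlapped between groups. Hnrnpa1, a splicing silencer known to oppose SRSF1, was lower at -0.49, and 46.4% of its 50-base stretches are shared with other genes. All 5 lower hnRNP genes stayed lower in each of the 6 fits that left out a library. They were also lower with library totals and with lymphoid scaling, where the downward shift of all genes fixes that sign.

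The other higher hnRNP genes had log2 fold changes between 0.40 and 0.86. They were Hnrnpa2b1 (0.86), a relative of hnRNP A1 that also sorts microRNAs, Hnrnpul1 (0.83), Hnrnpr (0.81), Hnrnpm (0.76), the G-run binders Hnrnph2 (0.69) and Hnrnph1 (0.58), and Hnrnpu (0.40), a scaffold of nuclear RNA and chromatin. With library totals the calls of Hnrnph1, Hnrnph2 and Hnrnpu ended, and with lymphoid scaling all 7 were negative. Hnrnpm shares exonic sequence with its neighbour March2 on the same strand, which holds 28.8% of its stretches. Shared stretches made up 18.2% of Hnrnph2 and 28.2% of Hnrnpa3. Hnrnpu and Hnrnpr have 804 and 715 exonic bases that overlap genes on the opposite strand. The members that did not pass were Hnrnph3 (0.64, edgeR adjusted p = 0.0514), Hnrnpdl (0.05, edgeR adjusted p = 0.757) and Hnrnpa3 (-0.17, edgeR adjusted p = 0.375). With library totals Hnrnpa3 (-0.55, edgeR adjusted p = 0.00675) and Hnrnpdl (-0.34, edgeR adjusted p = 0.0455) passed as lower. Hnrnph3 did not overlap between groups, at 20.7 to 25.4 CPM across the libraries labelled Batf-deficient and 8.30 to 17.8 CPM in the labelled control libraries, and it passed without labelled control replicate 2 or 3 (edgeR adjusted p = 0.0466 and 0.0273; 0.242 at most, without labelled Batf-deficient replicate 3).

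The ratio of the families was also compared within each library, which no scaling factor changes. The summed CPM of the 11 SR genes over that of the 20 hnRNP genes was 0.317, 0.325 and 0.320 in the libraries labelled Batf-deficient, against 0.355, 0.367 and 0.349 in the labelled control libraries. The groups did not overlap, and the mean ratio was 0.321 ± 0.00384 in the libraries labelled Batf-deficient and 0.357 ± 0.00943 in the labelled control libraries (SD, n = 3 each). No p-value is given for a sum over members. Without Srsf3 and Hnrnpk, the members with the highest mean CPM over all 6 libraries (in the labelled control libraries alone Hnrnpa2b1 stood above Hnrnpk), the difference in the log2 ratio was -0.34 in place of -0.15, and with levels per kilobase it was -0.26. The sums themselves do depend on scaling. As shares of library counts the SR genes took 0.111% ± 0.00413 in the libraries labelled Batf-deficient and 0.106% ± 0.00739 in the labelled control libraries. The hnRNP genes took 0.345% ± 0.0104 in the libraries labelled Batf-deficient and 0.298% ± 0.0129 in the labelled control libraries. With TMM factors the SR sums were 1267 ± 89.1 CPM in the libraries labelled Batf-deficient and 934.5 ± 60.9 CPM in the labelled control libraries. Those of the hnRNP genes were 3953 ± 258 and 2617 ± 103 CPM in the same order (SD, n = 3 each).

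The make-up of the SR family also differed between the groups. Srsf3 took 32.1% ± 1.597 of the summed SR CPM across the libraries labelled Batf-deficient and 17.9% ± 0.990 in the labelled control libraries, and Srsf5 took 17.1% ± 2.12 and 11.7% ± 1.52 (labelled Batf-deficient and labelled control). Srsf2, Srsf11, Srsf6 and Srsf1 took 10.4%, 12.6%, 4.40% and 3.26% in the libraries labelled Batf-deficient, against 16.0%, 16.2%, 7.77% and 7.04% in the labelled control libraries. Srsf7 was at 10.6% in the libraries labelled Batf-deficient and 12.7% in the labelled control libraries. In the hnRNP family Hnrnpk, Hnrnpa2b1 and Hnrnpa1 took 19.8% ± 0.221, 18.7% ± 0.718 and 3.05% ± 0.120 of the summed CPM across the libraries labelled Batf-deficient. Their shares were 15.002% ± 0.813, 15.6% ± 0.908 and 6.47% ± 0.352 in the labelled control libraries (SD, n = 3 each).

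**Figure D3:**
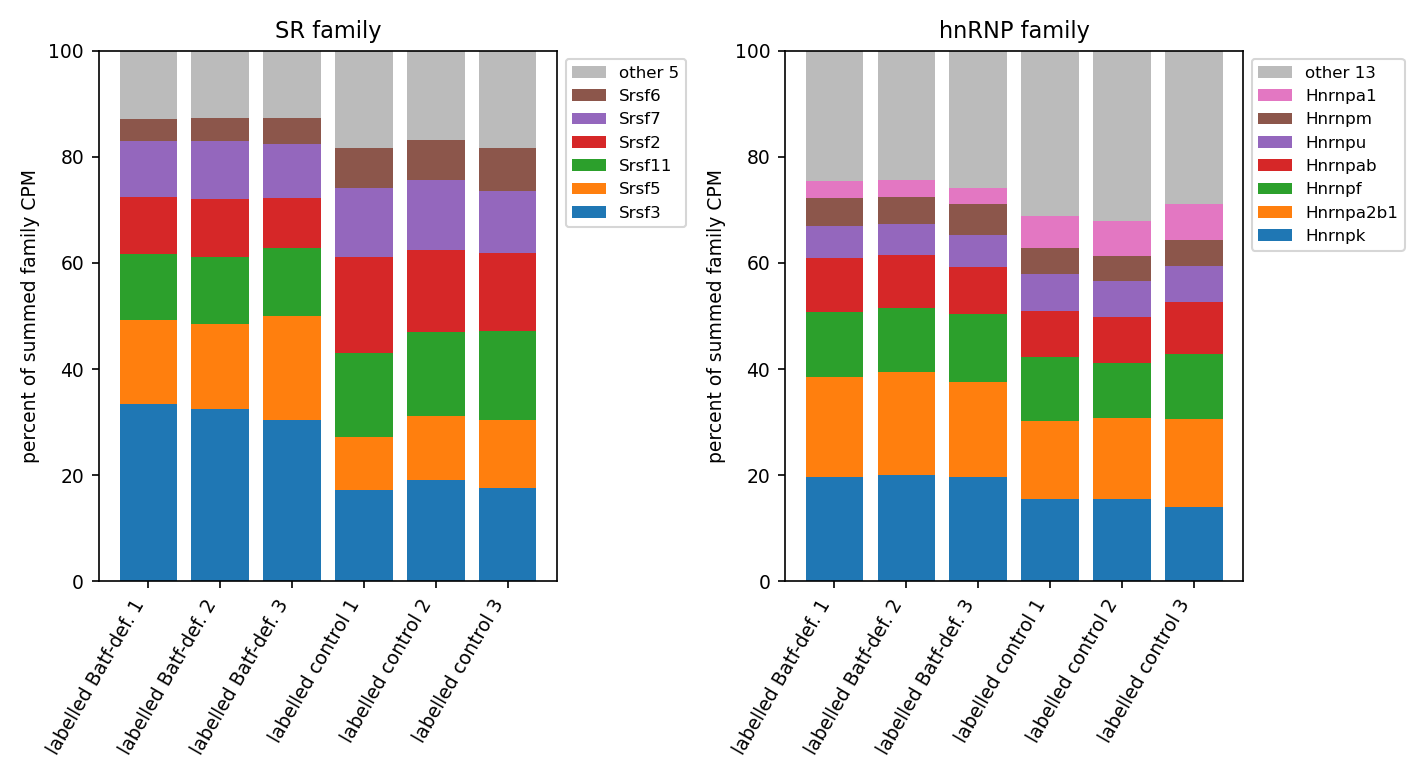
Share of each member in the summed CPM of its family, in percent, for each library. The blue segment of Srsf3 fills 32.1% on average in the libraries labelled Batf-deficient and 17.9% in the labelled control libraries, and the blue segment of Hnrnpk fills 19.8% in the libraries labelled Batf-deficient and 15.002% in the labelled control libraries.

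Ratios between single members, chosen after their values were seen and given as description, show how far the members moved apart. Srsf3 over Srsf1 was 9.69, 9.44 and 10.4 in the libraries labelled Batf-deficient, against 2.42, 2.81 and 2.42 in the labelled control libraries. Hnrnpk over Hnrnpa0 was 63.5, 64.2 and 69.7 in the libraries labelled Batf-deficient, against 10.9, 10.98 and 12.002 in the labelled control libraries. Both ratios compare counts of genes of different length, so that their change between groups, and not their size, can be read. The ratio of Hnrnph1, a G-run binder, to Hnrnpa1 was 1.16 ± 0.0170 in the libraries labelled Batf-deficient and 0.556 ± 0.0432 in the labelled control libraries (SD, n = 3 each).

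**Figure D4:**
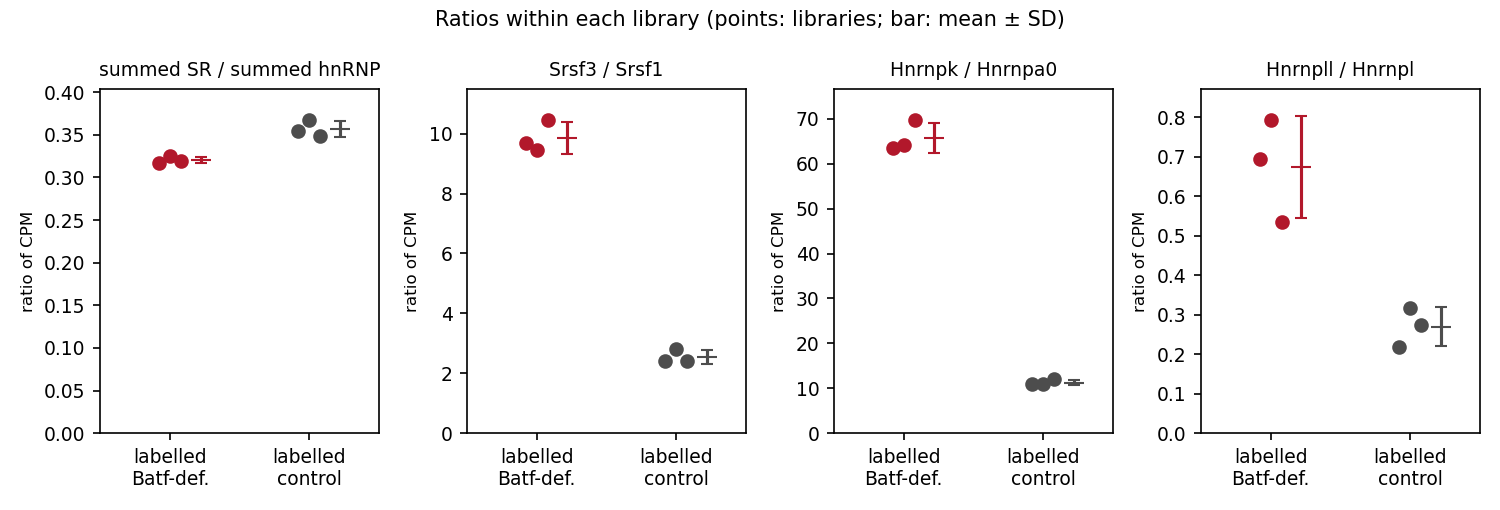
Ratios of CPM within each library: summed SR over summed hnRNP, Srsf3 over Srsf1, Hnrnpk over Hnrnpa0 and Hnrnpll over Hnrnpl; points are libraries and bars the mean ± SD of 3. The labelled Batf-deficient and labelled control points do not overlap in any panel, with means of 9.86 (labelled Batf-deficient) and 2.55 (labelled control) for Srsf3 over Srsf1, and of 65.8 (labelled Batf-deficient) and 11.3 (labelled control) for Hnrnpk over Hnrnpa0.

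The rest of the splicing machinery was examined in 10 lists with no gene in common with the families. With TMM factors 78 of the 177 list genes tested were higher and 25 lower, and the median log2 fold change was 0.36, where 30.2% of all genes were higher, 34.1% were lower and the median was 0.02. With library totals 37 were higher and 46 lower, where 20.0% and 42.4% of all genes were. With lymphoid scaling 174 were lower and 3 did not pass, where 85.8% of all genes were lower. The counts of the single lists, most of them of few genes, are given as description beside those same shares with TMM factors. Genes named are up to 3 per list with the lowest edgeR p among those passing, so lower genes of a list can go unnamed. Of 10 kinases that phosphorylate the arginine-serine tails 4 were higher and 1 was lower. Among them Clk1, a nuclear kinase whose own transcript is held back with introns and completed under stress, had 558, 588 and 446 CPM across the libraries labelled Batf-deficient, against 134, 171 and 169 CPM in the labelled control libraries. Its log2 fold change, 1.75 with SE 0.13 (adjusted p = 2.28e-07 by edgeR), was above that of any SR or hnRNP gene that passed, and was -0.59 with lymphoid scaling. Clk3 was at 0.94 and the lower kinase, Dyrk1a, at -0.87.

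Of 24 SR-related proteins 12 were higher and 3 lower (median 0.38). Srrm2, a scaffold of nuclear speckles, had a log2 fold change of 1.24, Srrm1 was at 0.67, and the exon activator Tra2b was at 196 ± 24.9 CPM across the libraries labelled Batf-deficient and 97.6 ± 7.77 CPM in the labelled control libraries. Of 22 hnRNP-class proteins with other names 9 were higher and 4 lower (median 0.27). Ptbp1, the polypyrimidine tract binder that represses exons, was at 660 ± 50.6 CPM across the libraries labelled Batf-deficient and 264 ± 29.6 CPM in the labelled control libraries (log2 fold change 1.32), with Pcbp1, a C-rich RNA binder, at 1.21 and the cold-inducible Rbm3 at 1.05.

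The core components follow, with log2 fold changes of the genes named. Of 23 U1, U2 and U2AF genes 8 were higher and 1 lower, with the branch-site proteins Sf3b1 at 1.03 and Sf1 at 1.09 and Snrpa1 at 0.62. Of 15 Sm and LSm genes 3 were higher and 3 lower (median -0.07), with Lsm8 at 1.92, Snrpe at 0.82 and Snrpn, an Sm protein gene best known from neurons, at -4.48. Of 16 tri-snRNP genes 8 were higher and 2 lower, with Snu13 at 1.48, Prpf8 at 1.15 and Eftud2 at 0.97. The list of the Prp19 complex and catalytic step had 13 of 21 higher and 8 not passing (median 0.52), with Isy1 at 1.64, Xab2 at 1.26 and Syf2 at 1.12. Of 15 genes of the exon junction complex and nonsense-mediated decay 8 were higher and 3 lower, with Magoh at 1.30, Rbm8a at 1.07 and Eif4a3 at 1.03. Of 9 import and export genes 3 were higher and 1, the export adaptor Alyref (-1.43), was lower, beside Nxf1 at 0.78 and Thoc2 at 0.56.

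Of 22 other alternative splicing regulators 10 were higher and 7 lower. Rbm47 and Esrp1, which act in epithelia, were at 6.53 ± 0.759 and 3.12 ± 1.28 CPM across the libraries labelled Batf-deficient and at 195 ± 30.4 and 61.7 ± 8.18 CPM in the labelled control libraries (log2 fold changes -4.91 and -4.32). Most of the epithelial, acinar, B and plasma cell, stromal and macrophage markers given above were also lower, and a link to these genes was not tested. Khdrbs1 (Sam68), a STAR-family protein of lymphocyte signalling, was at 1.48. All genes named from the lists, other than Rbm47, Esrp1, Snrpn, Alyref and Dyrk1a, turned negative with lymphoid scaling. These 5 exceptions were negative with TMM factors and had to stay so, since lymphoid scaling shifts all genes down.

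**Figure D5:**
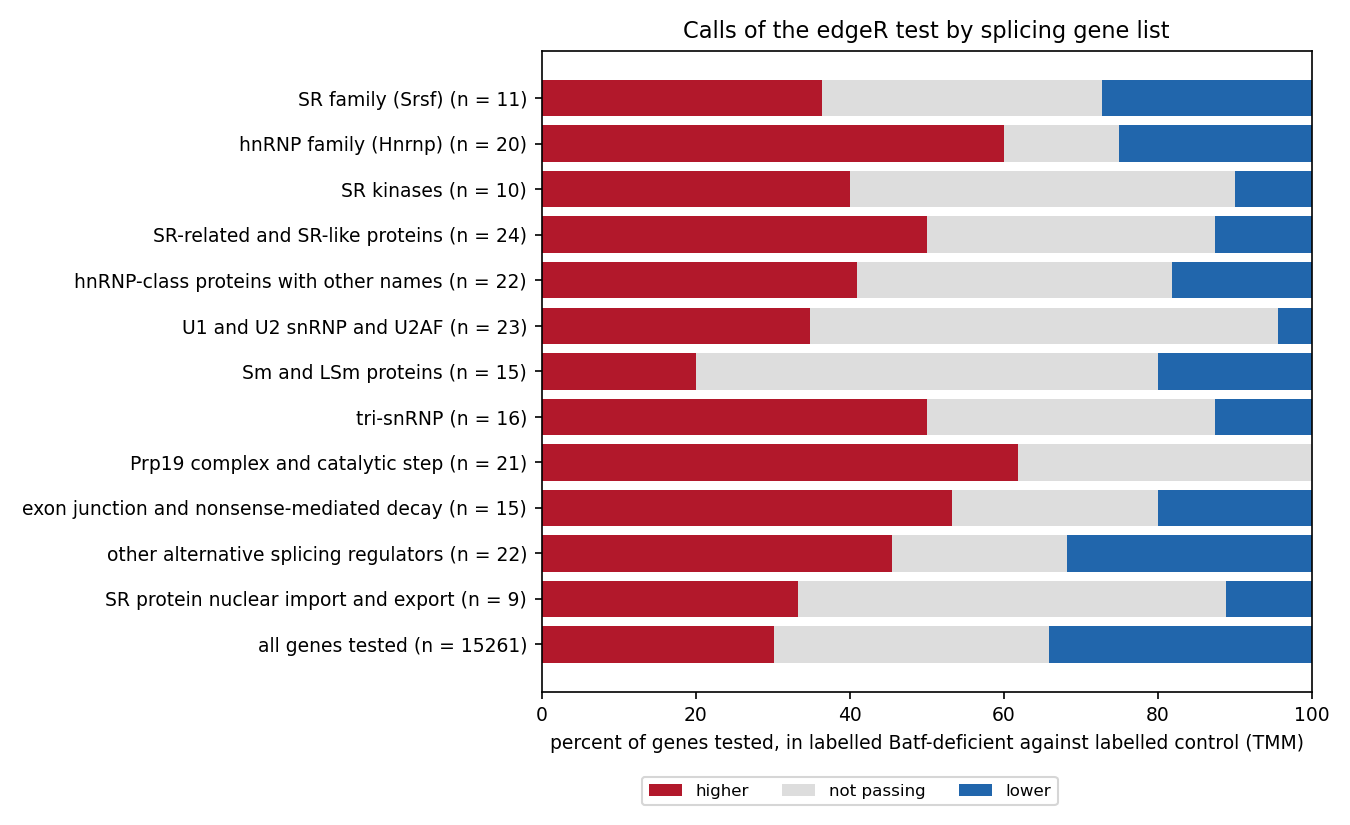
Percent of genes tested that were higher (red), lower (blue) or did not pass (grey) in the libraries labelled Batf-deficient against the labelled control libraries, by edgeR with TMM factors, for the SR and hnRNP families, 10 other splicing lists and all 15261 genes. The hnRNP family has 12 of 20 higher and the SR family 4 of 11, beside 30.2% of all genes. With lymphoid scaling 30 of the 31 family members and 174 of the 177 list genes are lower, beside 85.8% of all genes.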

How the data were processed

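The authors deposited raw counts of 6 libraries in 1 table, with a row for each gene symbol. Per the submitters' processing notes, reads were placed on mm10. For the aligner, the counter, the annotation and the use of strand, nothing is stated in the sources used here. Smart-seq2 has no molecular identifiers, so counts are reads and floors cover counting error only.

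Differences were tested with edgeR 4.0.16 (R 4.3.3): filterByExpr (minimum count 10), TMM, glmQLFit (robust) and glmQLFTest over the 6 libraries, with a term for group and no covariate, and with Benjamini-Hochberg adjustment over 15261 genes and a threshold of 0.05. The script was tested on simulated counts with few changed genes, balanced in direction, which cannot speak to the choice of scaling in these data. DESeq2 1.42.0 and limma 3.58.1 (voom) were alternatives. Lymphoid scaling used the median ratio over 20 genes of lymphoid cells. With TMM factors 19 of these genes were higher. The panel was not uniform: under its own scaling 5 of its genes were higher and 8 lower. Positions, merged exon lengths and shared 50-base stretches (of the longest protein-coding transcript) came from GENCODE M21 (mm10), promoters from RefSeq (GRCm38.p6).

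Libraries labelled Batf-deficient 1 and 2 were the most alike (mean chi-square 2.36 per gene, against 14.8 to 24.2 for the other pairs within a group). They were counted as separate samples, since the series calls its replicates biological; whether they come from separate animals is not shown. The members and gene lists were chosen with earlier results of these data known. Values in every library are given for the 3 most abundant members of each family per kilobase and the 3 with the largest fold change in each direction, and up to 3 genes are named from each list; Hnrnpl and Srsf10 and the ratios were added after their values were seen.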

Additional observations from a re-analysis of the deposited data

How the results depend on the processing

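The direction of fold changes depended on scaling. With lymphoid scaling 332 genes were higher and 13099 lower, against 4612 and 5209 with TMM, and 3052 were higher with library totals. SR members higher and lower numbered 0 and 10 with lymphoid scaling and 2 and 5 with library totals; hnRNP members numbered 0 and 20 with lymphoid scaling; list genes numbered 0 and 174 with lymphoid scaling and 37 and 46 with library totals. Lymphoid scaling reversed 20 members: Srsf3 (-1.07), Srsf4 (-1.79), Srsf5 (-1.35), Srsf7 (-2.16), Srsf10 (-1.87), Srsf11 (-2.26), Hnrnpa2b1 (-1.48), Hnrnpab (-1.64), Hnrnpc (-1.23), Hnrnpdl (-2.30), Hnrnpf (-1.64), Hnrnph1 (-1.76), Hnrnph2 (-1.66), Hnrnph3 (-1.69), Hnrnpk (-1.35), Hnrnpll (-1.44), Hnrnpm (-1.58), Hnrnpr (-1.52), Hnrnpu (-1.95) and Hnrnpul1 (-1.51). Library totals reversed Hnrnpdl (-0.34) and Srsf11 (-0.30), which passed as lower, and Srsf7 (-0.20). By construction a scaling shifts all genes alike. With labelled Batf-deficient replicates 1 and 2 as 1 sample 2 SR members were higher (Srsf4 and Srsf10 lost their calls), and Hnrnpdl was at -0.0052. Leaving out each library gave 2 to 3 higher SR members; Hnrnpa3 (-0.315 to 0.0505), Hnrnpdl (-0.0365 to 0.174) and Srsf11 (-0.0103 to 0.124) changed sign without passing in any of these fits. DESeq2 size factors, TMM without tissue and heat shock genes, and no low-count filter changed no call of a member; by limma voom Srsf10 lost its call and Srsf12 passed, and by DESeq2 Srsf12 passed.

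The ratio of SR to hnRNP sums (log2 difference -0.15) was -0.11 with geometric means, without Srsf12, which had counts of 0. It was -0.26 per kilobase, -0.34 without Srsf3 and Hnrnpk and -0.17 to -0.13 without each library. Per kilobase the shares of Srsf3 and Hnrnpk differed by 9.78 and 3.95 percentage points, in place of 14.2 and 4.80; the cause was not tested. Same-numbered replicates did not deviate together (r = 0.00, 0.02 and 0.03), so the numbers were not used as pairs. With the replicate block 4603 genes were higher and 5091 lower, Srsf12 (3.64, edgeR adjusted p = 0.0303) and Hnrnph3 (0.70, edgeR adjusted p = 0.0208) passed as higher, and no call of a member was lost. Srsf12 alone among the members had counts of 0, and the others had at least 81 counts in every library. The effect of depth on the calls was not tested.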
